A study of Glycine max with 2 samples.

Results

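Heat shock proteins and chaperones were followed in leaves of soybean (Glycine max). Chaperones bind proteins that are unfolded or not yet folded, keep them from clumping and help them reach their working shape. Small heat shock proteins hold unfolded proteins without using ATP. HSP70 with its DnaJ partners, HSP90, HSP100 and the barrel-shaped chaperonins use ATP to refold or release them. In plants many small heat shock genes are silent in unstressed leaves and are switched on by heat, under heat stress transcription factors (HSFs). Chaperonins and many DnaJ proteins serve the chloroplast at ordinary temperatures.

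The members are the transcripts whose deposited description holds the words heat shock, kDa class, chaperon, DnaJ, heat stress (apart from heat stress transcription factors), BAG family or calnexin. They came to 31 different transcripts of 28 genes, among 4096 listed transcripts of 3358 genes. Of the 31, 7 were listed at 50 days only, 20 at 95 days only and 4 at both ages. The database entry name in the symbol column was that of a chaperone for 29 of the 31. The exceptions were Glyma.13G167200.2, which had no symbol, and Glyma.12G229000.1, a BCS1-like mitochondrial chaperone whose entry is that of an AAA-type ATPase. Counted among the 29 is Glyma.19G172200.2, an HSP70 by its description, whose entry is named for a Mediator subunit.

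The study compared plants that senesce early with plants that senesce late, raised in a greenhouse under normal conditions and sampled 50 or 95 days after sowing. No treatment, cultivar name or genotype is given in the labels. Each age has 1 table that sets a library A against a library B. Which of them is the early type is not stated, nor whether A is the same type at both ages, so results are given by library letter. Both deposited files are named for early against late in that order, but nothing ties the order of the name to the letters. Both names also carry the same pair of numbers in the same order, with no word on what the numbers stand for. There was 1 library per type and age, so no difference has a replicate check, no test of the types was possible, and the authors' p-values compare a pair of libraries.

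Only transcripts whose unadjusted p fell under 0.05 are in the authors' deposited table of each age, 2413 at 50 days and 2471 at 95 days. The lowest absolute log2 ratio listed was 3.58 at 50 days and 3.57 at 95 days, so a chaperone that differed less does not appear, and library depth is unknown. Values are normalised reads of single isoforms, not divided by transcript length, and the total of a gene is not known. A fold against a library with no read is a lower bound, computed against 3 reads in that library. Other folds carry a 95% binomial interval on the reads (exact, Clopper-Pearson), which covers counting error only. Marker lists of leaf mesophyll, guard cells, vascular tissue, nodule and root, and seed held 5, 4, 1, 3 and 0 listed transcripts at 50 days, and 1, 4, 1, 1 and 0 at 95 days. At 50 days the mesophyll list lay 4 in A and 1 in B, with a median log2 ratio of -5.28. The nodule and root list then lay 1 in A and 2 in B, and the vascular transcript had 0 normalised reads in A against 238.5 in B. Guard cell transcripts lay 2 in A and 2 in B at each age. At 95 days the 1 mesophyll transcript stood at 33.6 normalised reads in A against 1061 in B, a fold of 31.6. The vascular one stood at 0 against 133.5, at least 35.7-fold. The nodule and root one lay the other way, at 386 in A against 0 in B, at least 117.6-fold. The lists went by words in the description, leghemoglobin or nodulin for nodule and root, and a word match does not show the tissue. The part of these cell types in the results was not tested, and markers that did not differ between the libraries cannot be seen in tables of this kind.

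At 95 days the small heat shock proteins stood together on the B side. All 10 listed transcripts, each of a different gene, had more normalised reads in B, against 53.3% of all listed transcripts at that age. In B they ranged from 39.4 to 1715 normalised reads with a median of 150.4, and in A from 0 to 63.5 with a median of 0. No read was found in A for 6 of the 10, while 39.7% of all listed transcripts had none in A. Only a transcript on the B side can have none in A, and 980 of the 1317 listed there had none. Beside that B side, the class was not unusually often without reads in A. The members came from several cell compartments, as the descriptions and the Arabidopsis matches show.

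**Figure D1:**
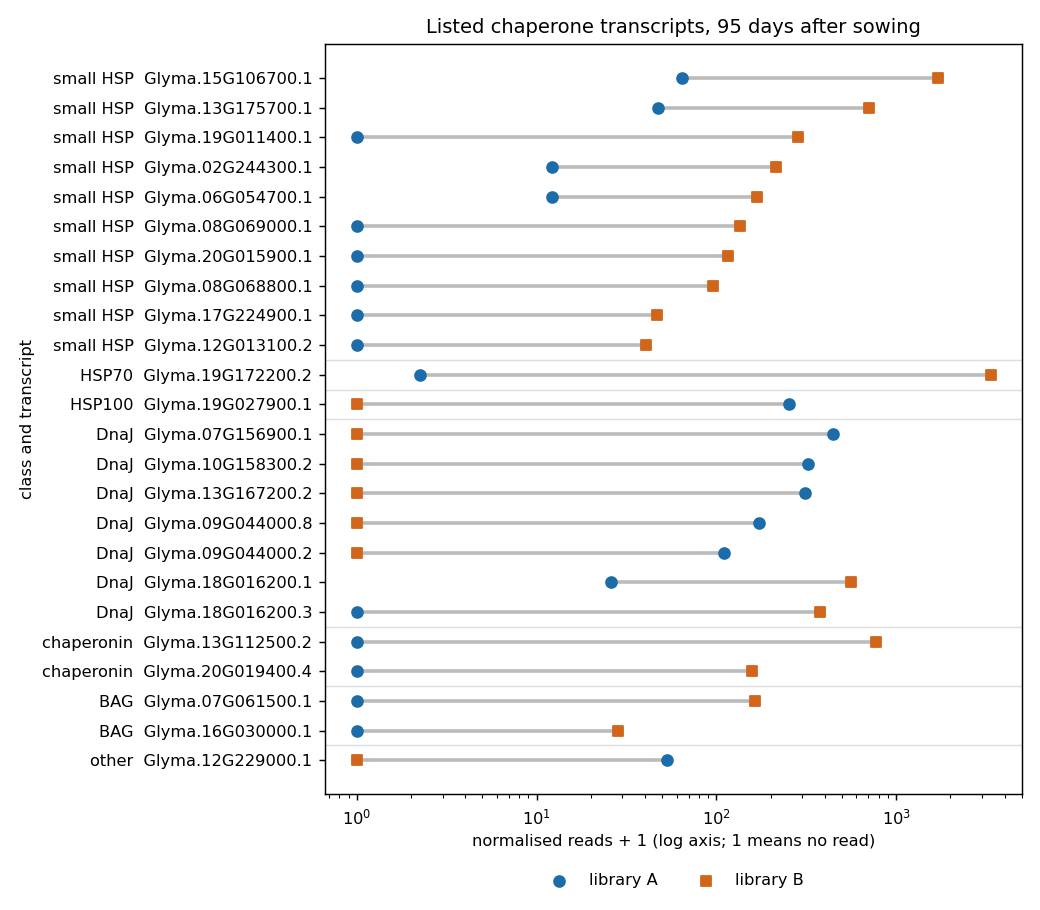
Normalised reads plus 1 (log axis) of the 24 chaperone transcripts listed at 95 days, with circles for library A, squares for library B and a grey line joining the pair. All 10 small heat shock transcripts have their square to the right of their circle, while 5 of 7 DnaJ transcripts show the opposite order.

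Cytosolic class I proteins are the most abundant small heat shock proteins of heated plant cells. Their listed transcripts were 3, all matched to the same Arabidopsis gene. The 17.5 kDa class I transcript, Glyma.13G175700.1, stood at 46.1 normalised reads in A against 703 in B, a fold of 15.3 (11.0 to 21.9). The 17.3 kDa class I transcript, Glyma.08G069000.1, was read in B alone, at 133.5, and was at least 35.7-fold higher there. Glyma.08G068800.1, described as a class I protein without a size, had 95.2 normalised reads in B against none in A, a gap of at least 25.5-fold. The last pair share one database entry, and no source used here says how reads were divided between such close copies.

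Class II proteins form a second cytosolic family. The 3 class II transcripts also shared an Arabidopsis match. Glyma.06G054700.1 stood at 11.2 normalised reads in A against 167 in B, a fold of 14.9 (7.66 to 33.3). Glyma.20G015900.1 was read in B alone, at 115, and was at least 30.7-fold higher there. The 17.9 kDa transcript, Glyma.17G224900.1, had 45.9 normalised reads in B against none in A, a gap of at least 12.3-fold. So both cytosolic classes lay on one side, with bounds and folds between 12.3 and 35.7.

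The other 4 small heat shock transcripts belong to other classes or organelles. The 15.4 kDa class V transcript, Glyma.15G106700.1, stood at 63.5 normalised reads in A against 1715 in B, a fold of 27.0 (20.4 to 36.4). Hsp22.3, Glyma.19G011400.1, whose Arabidopsis match is a protein of the endoplasmic reticulum, was read in B alone, at 282, and was at least 75.5-fold higher there. Its adjusted p in the authors' deposited table was 0.158, the lowest of the class. The peroxisomal protein, Glyma.02G244300.1, stood at 11.2 in A against 214 in B, a fold of 19.1 (9.87 to 42.5). The mitochondrial 22 kDa protein, Glyma.12G013100.2, had 39.4 normalised reads in B against none in A, a gap of at least 10.5-fold. This last value rests on 36 reads, the fewest of the 10.

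None of these 10 transcripts was listed at 50 days. The only small heat shock transcript of that age was Glyma.01G106800.1, described just as a heat shock protein and given a small heat shock entry of alfalfa as its symbol. It had no read in A and 16.9 normalised reads in B, from 18 reads, at least 7.02-fold higher. Being absent from the 50-day table shows only that a transcript's p there was not under the listing threshold.

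HSP70 proteins are the central ATP-driven chaperones, and 1 transcript was listed at each age, on opposite sides. At 95 days Glyma.19G172200.2, described as heat shock cognate 70 kDa protein 2, stood at 1.25 normalised reads in A against 3353 in B. This is 1 read against 3065 and a fold of 2692 (483 to 106372), and the deposited log2 ratio of 10.54 was the largest in size of any member. Its adjusted p in the authors' deposited table was 0.158. At 50 days a different gene, Glyma.17G072400.1, described as heat shock 70 kDa protein, was read in A alone, at 156, and was at least 55.3-fold higher there. These are different genes, so the pair says nothing on how either changed with age. A further gene, Glyma.02G085600.1, is described as a Mediator subunit but carries the same symbol and Arabidopsis match as the 95-day member. It was found by that symbol and lay on the other side at 95 days, read in A alone at 88.4, a gap of at least 26.9-fold.

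No HSP90 and no calnexin matched at either age. An endoplasmin homolog, the HSP90 of the endoplasmic reticulum, lies outside the description words and was found by its symbol. At 95 days its isoform Glyma.14G219700.1 stood at 1368 normalised reads in A against 27.3 in B, a fold of 50.0 (33.7 to 77.6). A second isoform, Glyma.14G219700.2, was read in A alone, at 124.5. Both thus lay opposite to the small heat shock transcripts. Calreticulin-3-like Glyma.12G050700.4, which encodes a sugar-binding chaperone of the same compartment, had 354 normalised reads in B against none in A, a gap of at least 94.9-fold. HSP100 proteins pull clumped proteins apart, and their 1 listed transcript, chloroplast ClpB3-like Glyma.19G027900.1 at 95 days, was read in A alone, at 252, and was at least 76.7-fold higher there.

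DnaJ proteins bring clients to HSP70 and stimulate its ATPase. They divided between the libraries at both ages, 4 against 2 at 50 days and 5 against 2 at 95 days, the larger number being in A. Of all listed transcripts, 60.8% lay in A at 50 days and 46.7% at 95 days. At 50 days the DnaJ and 4Fe-4S domain transcript Glyma.13G289600.1 stood at 2101 normalised reads in A against 84.5 in B, a fold of 24.9 (20.1 to 31.0). ERDJ3A-like Glyma.07G152900.1, from a group of DnaJ proteins of the endoplasmic reticulum, had 283 normalised reads in A against none in B, a gap of at least 100.3-fold. Its adjusted p of 0.140 in the authors' deposited table was the lowest of any member at that age. The A side also held dnaJ 15, Glyma.07G156900.1, and the subfamily B member 14-like Glyma.10G158300.2. On the B side, DnaJ Glyma.11G241000.2 was read in B alone, at 125, and was at least 51.9-fold higher there. The other was Glyma.18G016200.3, of a second gene with the same symbol.

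**Figure D2:**
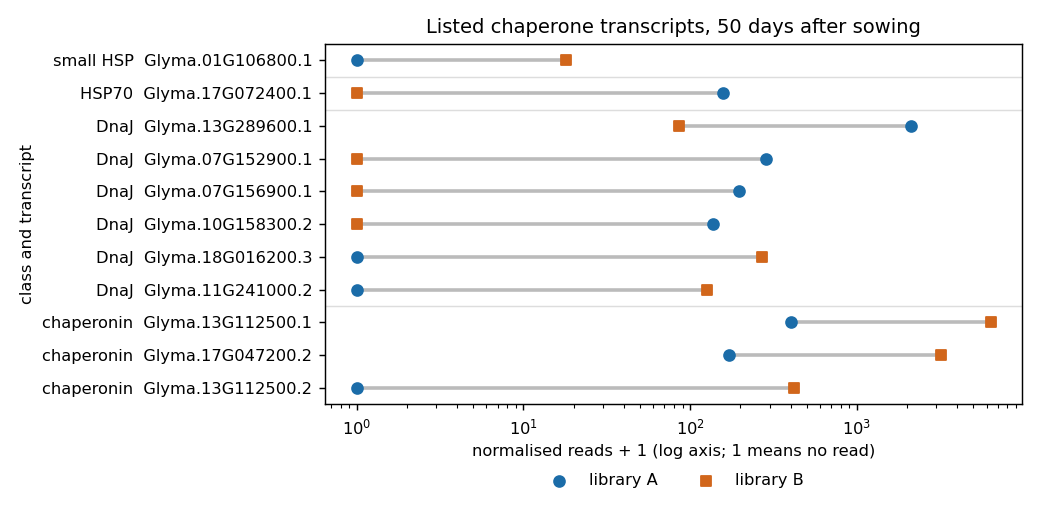
Normalised reads plus 1 (log axis) of the 11 chaperone transcripts listed at 50 days, with circles for library A, squares for library B and a grey line joining the pair. The 3 chaperonin transcripts have more reads in B, and 4 of 6 DnaJ transcripts have more in A.

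At 95 days both listed isoforms of dnaJ 49-like Glyma.09G044000 were on the A side. Isoform Glyma.09G044000.8 had 172 normalised reads and Glyma.09G044000.2 had 109.6, with none in B for either. DnaJ-like Glyma.13G167200.2 had 309 normalised reads in A against none in B, a gap of at least 94.1-fold. The B side was held by 1 gene, DnaJ-like Glyma.18G016200. Its isoform Glyma.18G016200.1 stood at 24.9 in A against 561 in B, a fold of 22.5 (14.4 to 37.2), and Glyma.18G016200.3 had none in A. Where a member gene had more than 1 listed isoform at an age, its isoforms lay on the same side. These genes were Glyma.13G112500 at 50 days, and Glyma.09G044000 and Glyma.18G016200 at 95 days.

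Chaperonins of the chloroplast fold proteins inside that organelle, among them the large subunit of Rubisco, and the 20 kDa chaperonin is the lid of that barrel. Every listed chaperonin transcript had more reads in B, 3 of 3 at 50 days and 2 of 2 at 95 days, where the shares of all listed transcripts in B were 39.2% and 53.3%. At 50 days the 20 kDa chaperonin transcript Glyma.13G112500.1 stood at 404 normalised reads in A against 6350 in B, a fold of 15.7 (14.4 to 17.3). The copy on a second gene, Glyma.17G047200.2, stood at 171 in A against 3180 in B, a fold of 18.6 (16.2 to 21.5). The lower library held 503 reads of the first and 213 of the second, so counting error is small beside both folds. Counting error is only part of the uncertainty with 1 library per type. The unadjusted p in the authors' deposited table was 0.033 for the first and 0.035 for the second. Neither passed the adjusted p threshold. The minor isoform Glyma.13G112500.2 was read in B alone, at 418, and was at least 173.5-fold higher there. At 95 days that isoform was listed again, with none in A and 767 in B, at least 205-fold higher. Glyma.20G019400.4, alpha 2 subunit of the 60 kDa barrel itself, had 157.5 normalised reads in B against none in A, a gap of at least 42.2-fold.

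**Figure D3:**
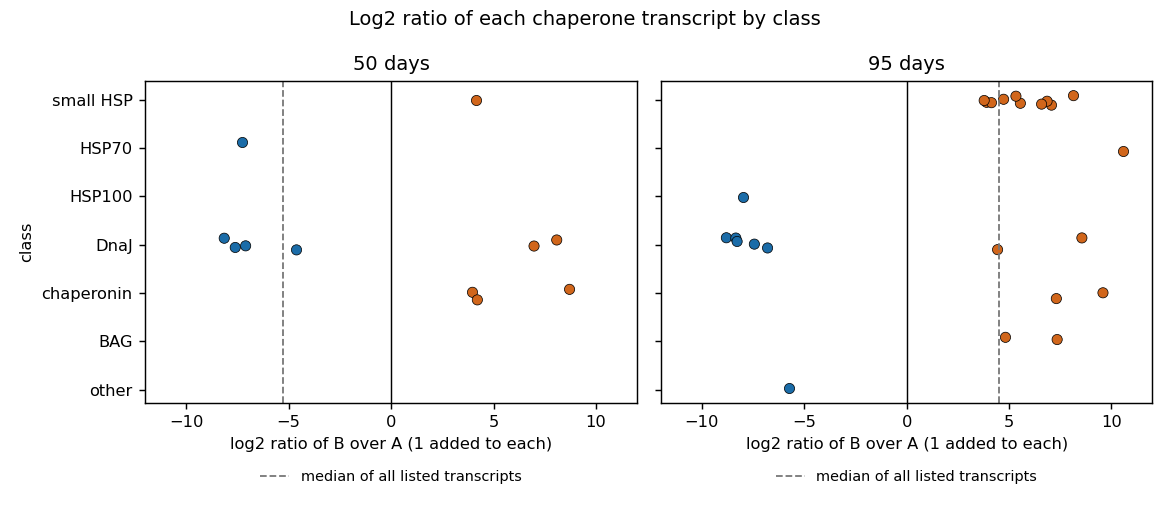
Log2 ratio of B over A of each chaperone transcript by class, at 50 days (left) and 95 days (right), with points right of 0 higher in B and points left of 0 higher in A; the dashed line is the median of all listed transcripts and vertical scatter within a row has no meaning. Small heat shock and chaperonin points lie right of 0 at both ages, and DnaJ points lie on both sides.

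BAG proteins regulate HSP70. At 95 days both listed BAG family members, of the calmodulin-binding BAG6 kind of Arabidopsis, were on the B side. Glyma.07G061500.1 was read in B alone, at 162, and was at least 43.3-fold higher there. Glyma.16G030000.1 was read in B alone, at 27.3, from 25 reads, at least 7.32-fold higher. The remaining member, BCS1-like Glyma.12G229000.1, had 52.3 normalised reads in A against none in B, a gap of at least 15.9-fold. The large proline-rich proteins whose symbol also reads BAG6 are named after an animal protein and are not members. Their 5 listed transcripts, of 2 genes, had 98.4 to 527 in A and none in B.

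Over all classes at 95 days, 17 of 24 members lay in B and 7 in A, beside 53.3% of all listed transcripts in B. Without the small heat shock transcripts the remaining 14 divided 7 and 7. At 50 days 6 of 11 members lay in B and 5 in A, beside 39.2% in B over the table. The members' median log2 ratio (B over A) was 4.78, and 4.52 over all listed transcripts at 95 days; the medians at 50 days were 3.97 and -5.29. Since no listed transcript has a ratio near 0, such a median jumps from one side to the other when the division is near even.

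No member passed both an adjusted p of 0.05 in the authors' deposited tables and an absolute log2 ratio of 1, 0 of 11 at 50 days and 0 of 24 at 95 days. Over all listed transcripts 4.64% met that rule at 50 days and 1.50% at 95 days. A fold of at least 100, with 0 reads set to 3 reads, was reached by 3 members at 50 days and 4 at 95 days, beside 42.1% and 36.2% of the tables. No small heat shock transcript was among them. One library had no read for 8 of 11 members at 50 days and 18 of 24 at 95 days, beside 70.5% and 75.3%.

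The 4 member transcripts listed at both ages kept their library letter, 2 in A and 2 in B. Of the 788 transcripts listed at both ages, 68.0% did so. DnaJ 15, Glyma.07G156900.1, had 194 normalised reads in A at 50 days and 445 in A at 95 days, and Glyma.10G158300.2 had 136 and 323. Neither had a read in B at either age. In B, 20 kDa chaperonin isoform Glyma.13G112500.2 had 418 and 767, and DnaJ-like Glyma.18G016200.3 had 270.4 and 375, with none in A. Their bounds were 69.0-fold and 135-fold for Glyma.07G156900.1, 48.4-fold and 98.3-fold for Glyma.10G158300.2, and 112-fold and 100.4-fold for Glyma.18G016200.3. The ratio of the 95-day to the 50-day value ran from 1.39 (1.18 to 1.63) for Glyma.18G016200.3 to 2.36 (1.94 to 2.89) for Glyma.10G158300.2. That ratio depends on a scaling between ages that no source states.

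**Figure D4:**
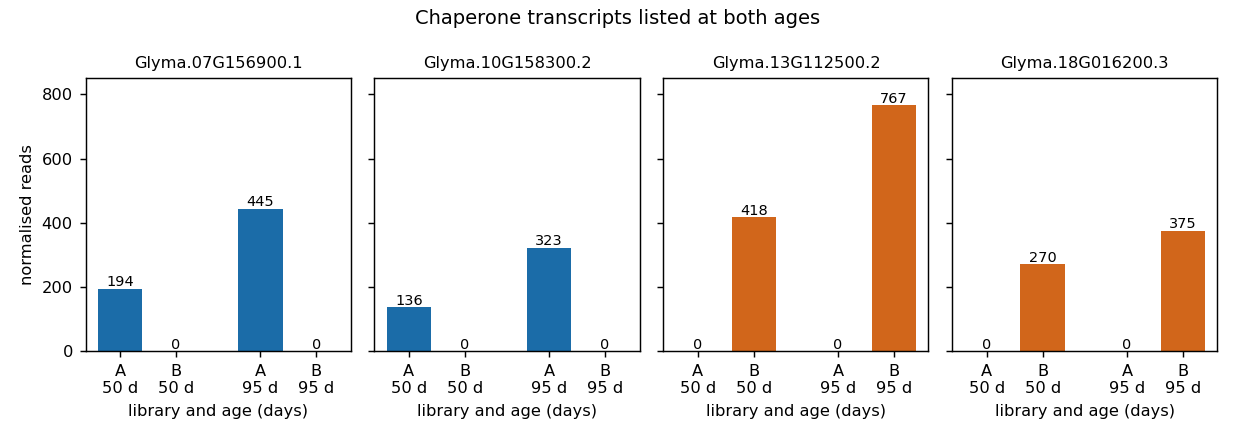
Normalised reads of the 4 chaperone transcripts listed at both ages, as bars for library A and library B at 50 and 95 days after sowing; each bar is 1 library, so there is no error bar. The first pair has reads in A only, 194 and 445 for Glyma.07G156900.1, and the second pair in B only.

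HSFs switch heat shock genes on or, for class B factors, can hold them down in Arabidopsis. None was listed at 50 days. At 95 days 7 transcripts of 5 genes were, 4 in A and 3 in B, beside 53.3% of all listed transcripts in B. The 4 in A were the B-2b-like ones. Hsf-03 had 3 isoforms there: Glyma.01G217400.1 stood at 387 normalised reads in A against 23.0 in B, a fold of 16.9 (10.8 to 27.6), Glyma.01G217400.2 was read in A alone, at 248, and Glyma.01G217400.4 had 183 and none. The second gene, Glyma.11G025700.2, was read in A alone, at 74.7. On the B side, all with no read in A, were A-7a-like Glyma.03G157300.2 with 115, Hsf-19, Glyma.10G237800.1, with 48.1 and A-3-like Glyma.10G066100.1 with 24.1. Hsf-19 is a class B factor by its symbol, so the classes did not divide cleanly between the libraries.

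Other folding and heat response transcripts divided nearly evenly, 5 in A against 6 in B at 50 days, and 4 against 5 at 95 days without HSFs. The shares of all listed transcripts in B were 39.2% at 50 days and 53.3% at 95 days. At 50 days the chloroplast cyclophilin CYP26-2, Glyma.17G122500.2, a prolyl isomerase, was read in A alone, at 919 normalised reads, and was at least 326-fold higher there. FtsH-like Glyma.13G049800.2 stood at 16.9 in A against 617 in B, and cyclophilin CYP95-like Glyma.06G070300.2 was read in B alone, at 363. At 95 days FKBP62, a prolyl isomerase that works with HSP90, had isoforms on opposite sides. Glyma.05G149900.3 stood at 726 in A against 25.2 in B, while Glyma.05G149900.1 was read in B alone, at 268. FTSH of the chloroplast, Glyma.04G019100.2, a protease of damaged thylakoid proteins, was on the A side at both ages, with 713 against 0.939 at 50 days and 512 against 21.9 at 95 days. FtsH-like Glyma.04G213800.2 stood at 7.47 in A against 1185 in B at 95 days, a fold of 159 (72.6 to 433). Galactinol synthases, which make protective sugars under heat and drought, were listed at 50 days only, with 171 in A for Glyma.20G094500.1 and 22.5 for Glyma.19G219100.1 and none in B.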

How the data were processed

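Per the labels' protocols, leaf RNA went through Illumina NovaSeq sequencing. Trimmomatic 0.36 and DESeq 1.36.0 are named in the submitters' processing notes. No source used here names the aligner, read counter, build or annotation. The authors' 2 value columns hold a signal. After 1 was subtracted, 100% of values in each column were multiples of a single step, within 0.01 of a whole number. They were taken as 1 library's reads over a size factor, 1.25 and 1.06 for A and B at 50 days, 0.803 and 0.914 at 95 days. Normalised reads are the deposited value minus 1. The deposited log2 ratios and the p-values with their adjusted values are the authors' own. No test of own was made, as no group has more than 1 library.

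An exact repeat row (1 at 50 days) was dropped. Classes follow words in the description. Small heat shock proteins whose description missed the words fixed for that class (5 entries) were classed by symbol after their values were seen. The rule for named transcripts takes, per age and class, called members, the 3 most-read per side and those listed at both ages, and 2 per side of the folding list with all HSFs; the other members, and the genes found by symbol, calreticulin and galactinol synthases, were added after their values were seen. The members and lists were chosen with earlier results of these data known. The RefSeq table for soybean held 0 matching locus names, so no coordinates or sequences are given. Read recovery and intervals were tested on simulated data. Alternatives covered thresholds, level filters, 0 reads, isoforms, membership, pseudocount, centring and scaling. Python 3.11.15, numpy 2.4.6, pandas 2.3.3, scipy 1.17.1 and matplotlib 3.10.9 were used.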

Additional observations from a re-analysis of the deposited data

Results flagged for a closer look

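No member lay on opposite sides at the 2 ages, and 3 transcripts near the family did, by library letter. Among all 788 transcripts listed at both ages, 252 did so. Other transcripts near the family kept their letter: chloroplast FTSH Glyma.04G019100.2 in A, and disulfide-isomerase SCO2-like Glyma.02G132900.2 in B. The difference between ages was not tested, and the labels do not say that a letter stands for the same type at both ages. The mitochondrial protease FTSH 4-like Glyma.14G096100.2 had a log2 ratio of B over A of 7.61 at 50 days and -7.11 at 95 days. The chloroplast Clp protease adapter CLPS1, Glyma.07G089500.1, which hands proteins to a chaperone-driven protease, had -4.36 at 50 days and 6.45 at 95 days. Its normalised reads were 866 in A and 41.3 in B at 50 days, and 17.4 in A and 1609 in B at 95 days. Glyma.13G214300.2, uncharacterised but with a DnaJ entry as its symbol, had 7.20 at 50 days and -7.17 at 95 days.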

How the results depend on the processing

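At 95 days the small heat shock transcripts with more reads in B were 12 of 12 with symbols added. By description alone they were 6 of 6. An authors' p under 0.01 left 4 of 4. So did a mean of at least 100 normalised reads, and so did dropping rows of 0 reads. Settings that only leave out rows could give no other result, since the whole class lay in B. Centring was not run on this class. The log2 ratios of Glyma.13G175700.1 (3.90), Glyma.02G244300.1 (4.14) and Glyma.06G054700.1 (3.79) lay under the table's median of 4.52, and the others above it. At 95 days the members in B were 6 of 6 at p under 0.01, 8 of 12 at a mean of at least 100, 6 of 6 without rows of 0 reads and 7 of 14 without small heat shock transcripts. They were 23 of 41 with chaperone symbols added, a share near the 53.3% of all listed transcripts. When centred on the table, 13 of 24 members lay above its median ratio. That median divides all listed transcripts evenly by construction. At 50 days they were 0 of 2 at p under 0.01 and 2 of 3 without rows of 0 reads. The fold of at least 100 gave 3 and 4 calls in place of 0. The median log2 ratio at 50 days turned to -7.72 at p under 0.01, -0.32 with 1 transcript per gene and -3.79 with chaperone symbols added, and was 9.26 when centred on the table. At 95 days it was 7.21 at p under 0.01 and 0.26 when centred, and turned to -0.65 without small heat shock transcripts. Settings that leave out rows test fewer transcripts by construction; for the added symbols and the centring, the cause was not tested. The median ratio of the 95-day to the 50-day value of the 4 transcripts listed at both ages was 2.06, and 1.50 on reads before scaling. Symbol alternatives, and those on small heat shock transcripts, were chosen after seeing the data. No paired analysis was possible because nothing ties a library letter at 50 days to the same type at 95 days. No library could be left out, as each age has 1 per type. The depth of the libraries is unknown, so a value's precision is that of its own reads.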

Other observations

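Several genes outside the description words carry a DnaJ entry as their symbol and were looked at after their values were seen. Glyma.12G130000.1, with the same symbol as the 4Fe-4S DnaJ member of 50 days, stood at 736 normalised reads in A against 37842 in B at 95 days, a fold of 51.4 (47.4 to 55.9). Isoforms of Glyma.03G242300 lay on opposite sides at 95 days, Glyma.03G242300.2 with 969 in A and none in B, and Glyma.03G242300.1 with none in A and 629 in B. Isoforms of Glyma.13G214300 did so at 50 days, Glyma.13G214300.1 with 502 in A and none in B, and Glyma.13G214300.2 with none in A and 146 in B. The HSP70-HSP90 organizing protein 3, Glyma.01G211200.1, which passes clients between those chaperones, was read in A alone at 50 days, at 378, and was at least 134-fold higher there. A pair of further small heat shock genes at 95 days, Glyma.04G054400.1 and Glyma.14G099900.1, described as of the alpha-crystallin family, had none in A, and 167 and 23.0 in B.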
